A study of Gallus gallus with 24 samples.

Results

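Hepatic gene expression was compared between chickens of the fat line (FL) and the lean line (LL) at 11 wk of age. The comparison rests on the 4 two-colour cDNA arrays labelled 11 wk, of 24 arrays in the series, with 4 arrays at each of 6 ages from 1 to 11 wk. Each array held total liver RNA of FL birds in one dye and of LL birds in the other, and the series' design gives 4 biological replicates per genotype at each age. Both lines had been divergently selected on abdominal fat weight for 7 generations and were raised under a standard broiler growth protocol, without any other treatment. FL was in channel 1 (the green Alexa dye) on 11 wk replicates 1 and 3, and in channel 2 (the red Alexa dye) on 11 wk replicates 2 and 4. The labels do not say how many birds gave RNA to an array, so the spread between arrays holds the spread between birds and that of labelling and hybridisation.

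In birds the liver, more than adipose tissue, is where fatty acids are made from carbohydrate. The new fat is packed with apolipoprotein B into very low density lipoproteins, which carry it in the blood to the abdominal fat pad and other depots. The hepatocytes that do this also secrete most plasma proteins, among them albumin, transport proteins, clotting factors and complement. A two-colour array gives only the ratio of FL to LL RNA, so the level of a transcript in either line, hepatocyte markers included, cannot be read from it, and 16 of 20 listed hepatocyte markers were measured as ratios.

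The deposited values were log ratios, taken here as log2, on which 1 unit is a doubling. The labels state neither the log base, nor which channel is on top, nor whether columns of opposite dye orientation had been turned before deposit. Every comparison was therefore made on both readings. In the turned reading the sign of replicates 1 and 3 was changed. A positive result then means FL over LL under the assumption that the deposited ratio had channel 2 on top. This also assumes that columns had not been turned before deposit. In the reading as deposited the signs were left as they were. If columns had not been turned before deposit, the mean of this reading cancels the difference between the lines and keeps any difference between the dyes. If they had been turned, the same holds for the turned reading instead. Such cancelling needs equal numbers of both dye orientations, so the mean as deposited cancels only in part when 1 array is left out. A transcript with the same sign on all 4 arrays in one reading has opposite signs between the dye orientations in the other. Since the direction is not settled, no transcript is called higher in FL or in LL here.

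The 11 wk arrays were alike in quality, with values for between 18963 and 18968 of 19200 spots, medians of 0.0 and standard deviations (SD) across spots between 0.281 and 0.345. As deposited, all 6 pairs of 11 wk arrays correlated positively across spots, with r between 0.475 and 0.608, whether the dye orientation was the same or opposite. Their correlations with the 9 wk arrays were of the same size, between 0.448 and 0.634, and those with 1 wk arrays lay between -0.289 and 0.454. The median r was 0.171 with 1 wk, 0.447 with 3 wk, 0.234 with 5 wk, 0.3 with 7 wk and 0.536 with 9 wk arrays. It thus did not rise steadily with age. One pair stood apart. Replicate 4 correlated at 0.798 across 18968 spots with 7 wk replicate 1, the highest value of all pairs in the series, against 0.705 for the next pair. With the mean of each spot removed the pair still had r = 0.665. The labels place these arrays at different ages and in opposite dye orientations, so results are given with and without replicate 4. Spots are not independent replicates, and they share array, dye and labelling.

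**Figure D1:**
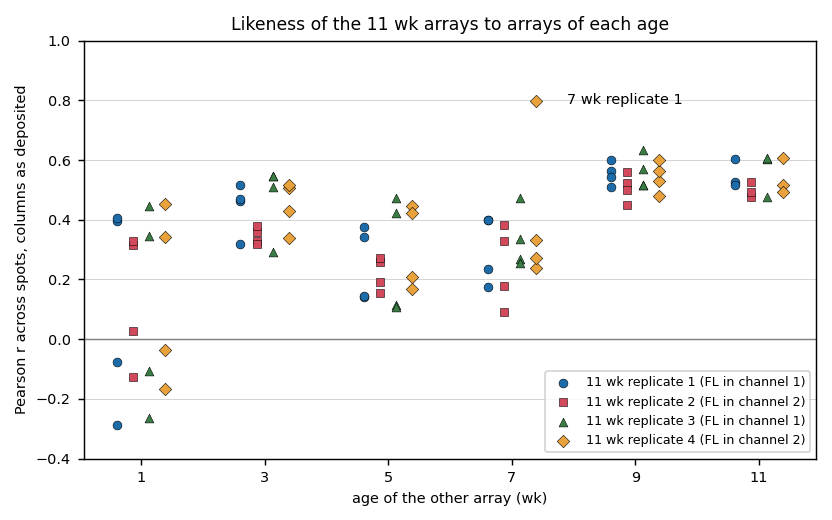
Pearson r across spots (vertical axis) between each 11 wk array and the arrays of each age (horizontal axis, wk), columns as deposited, with 1 marker shape per 11 wk replicate. Replicate 4 and 7 wk replicate 1 reach 0.798, above every other pair, and the 9 and 11 wk arrays lie between 0.448 and 0.634.

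Also, 2 arrays of other ages bear on the spread that all ages shared in the fit. The blocks of spots on 7 wk replicate 1 were not centred, with a block median of up to 0.541 in size. As deposited, 1 wk replicate 4 ran against the 11 wk arrays of both dye orientations. Its r was -0.289 and -0.263 with replicates 1 and 3, of the opposite orientation, and -0.126 and -0.168 with replicates 2 and 4. Of 14855 features tested, 6385 had a gene symbol and the other 8470 were probes for which the annotation gave none.

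The first comparison asked which hepatic transcripts differed between FL and LL birds at 11 wk when ratios were turned by the dye labels. It compares the lines only if columns had not been turned before deposit. No transcript passed the test in the main fit, neither among the enzymes of lipid synthesis nor among any other group. This fit had 1 dye term for all ages. Ratios that held their sign through the dye swap were seldom large. Among features with a symbol and 1 sign on all 4 arrays, the smallest p belonged to POC1B, which encodes a centriolar protein. Its log2 ratio was -0.67 ± 0.14 (SE, n = 4 arrays). The shares of features called positive and called negative were both 0% at an adjusted p of 0.05 (limma, Benjamini-Hochberg), and 452 features (3.04%) had an unadjusted p under 0.05. The smallest adjusted p was 1.0.

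The 4 arrays seldom gave a feature the same turned sign. Of 14845 features with 4 values, 615 were positive and 632 negative on 4 of 4 arrays, 8.4% in all. Of those 81 reached 1.2-fold on average and 0 reached 2-fold. The median half-width of the 95% interval was 0.17, a 1.13-fold change, and for 94.7% of features the interval lay within 1.5-fold in either direction. The intervals of 99.2% lay within 2-fold.

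POC1B had turned log2 ratios of -0.69, -0.38, -0.84 and -0.79 on replicates 1 to 4. All were negative, and the dye orientations overlapped, since replicate 4 lay between replicates 1 and 3. Its interval ran from -0.97 to -0.37, and its means at the other ages lay between -0.27 and 0.02. Without replicate 4 the ratio was -0.72 (adjusted p = 0.85). In the limma fit with a dye term for each age in place of 1 for all ages, POC1B alone was called (adjusted p = 0.00917).

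The other genes with the smallest p values and 1 sign on all arrays were the following. SCFD2, a Sec1 family gene, had turned ratios of -1.06, -0.42, -0.76 and -0.75 on replicates 1 to 4 (-0.75 ± 0.18). FMO4, a flavin-containing monooxygenase that oxidises foreign compounds, had -0.35, -0.41, -0.19 and -0.50 (-0.36 ± 0.09). GSTK1, a glutathione transferase of mitochondria and peroxisomes, had 0.92, 0.41, 0.64 and 0.20 (0.55 ± 0.17). Unlike in POC1B, the dye orientations did not overlap in any of these other genes, those named below included. Replicates 1 and 3 lay above replicates 2 and 4 in FMO4, GSTK1, NR1D2 and PCSK6, and below them in the rest. NR1D2, a nuclear receptor of the circadian clock, had -0.21, -0.24, -0.13 and -0.26 (-0.21 ± 0.06), a change of low size with little spread. PCSK6, a proprotein convertase, had 0.31, 0.20, 0.41 and 0.20 (0.28 ± 0.08). PMM2, which makes mannose 1-phosphate for protein glycosylation, had 0.28, 0.69, 0.01 and 0.62 (0.40 ± 0.12). The adjusted p of each was 1.0, and so was that of ARL6IP1 (-0.39 ± 0.09), LOC423719 (-0.32 ± 0.09), HMG20B (-0.19 ± 0.06), LARP1 (-0.16 ± 0.05) and the ribosomal protein gene RPS4Y1 (-0.22 ± 0.07).

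Among 22 measured genes of fatty acid synthesis, 0 were called, 15 had a positive turned value and the median was 0.04. Over all features 7362 of 14855 had a positive turned value and the median was 0.00. FASN, the fatty acid synthase, had turned ratios of 0.69, -0.50, 0.66 and -0.14 on replicates 1 to 4. ACACA, the acetyl-CoA carboxylase that supplies it, had 0.77, -0.84, 0.68 and -0.13. In both genes replicates 1 and 3 were positive and replicates 2 and 4 negative, so the sign followed the dye orientation. The fitted values were 0.18 ± 0.25 for FASN, with an interval from -0.34 to 0.70, and 0.12 ± 0.26 for ACACA, with an interval from -0.42 to 0.65. THRSP, a regulator of hepatic lipogenesis, behaved alike, with 0.24, -0.58, 0.19 and -0.70 (-0.21 ± 0.16). SCD, the stearoyl-CoA desaturase, had values near 0 on all arrays, with -0.06, -0.02, -0.24 and 0.06 (-0.06 ± 0.10, interval from -0.26 to 0.13).

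The other groups of lipid, carbohydrate and protein metabolism had 0 calls each and medians close to 0. Lipoprotein and lipid transport genes had a median of 0.00 over 18 genes, fatty acid oxidation genes 0.03 over 23 and cholesterol synthesis genes 0.00 over 14. Plasma carriers had a median of 0.06 over 22 genes and cytosolic ribosomal proteins -0.05 over 47. The widest turned value of a named gene was that of GATM, the first enzyme of creatine synthesis, with 1.41, 0.65, 1.82 and -0.22 on replicates 1 to 4. Replicates 1 to 3 were positive and replicate 4 was not, and the fitted ratio was 0.91 ± 0.41 with replicate 4 and 1.19 without it (adjusted p = 1.0 in both).

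**Figure D2:**
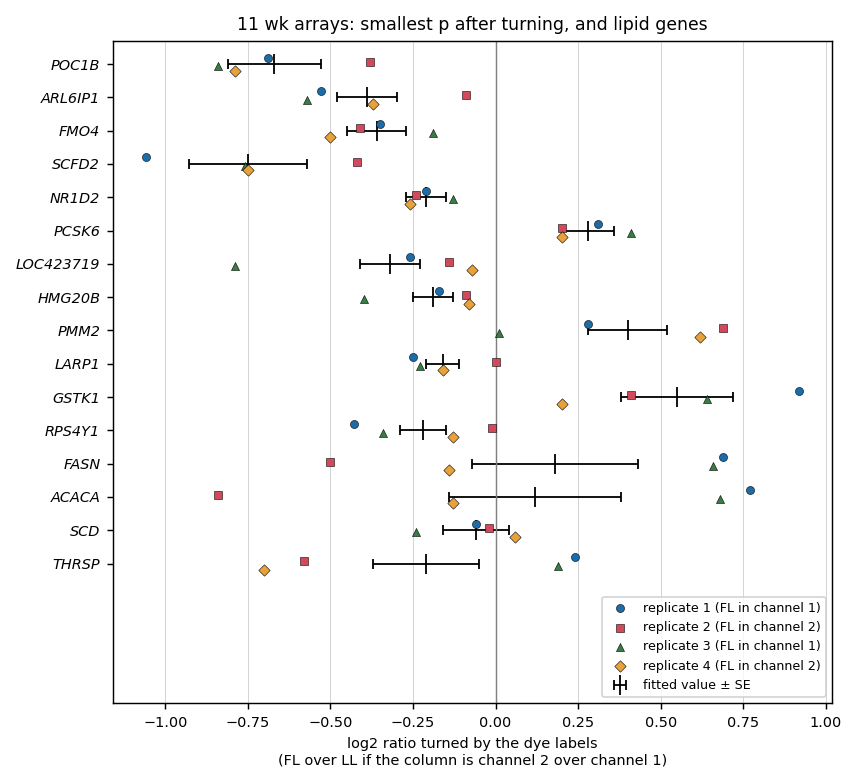
Turned log2 ratios (horizontal axis) of the 12 named genes with the smallest p and of 4 lipid genes (vertical axis) on the 11 wk arrays. Markers are single arrays and bars are fitted values ± SE. All 4 markers of POC1B are negative, between -0.84 and -0.38, whereas those of FASN and ACACA lie on both sides of 0.

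The second comparison took the columns as deposited and asked which transcripts had a mean ratio other than 0 at 11 wk. It compares the lines only if columns had been turned before deposit, and otherwise the dyes. In this reading the arrays shared a marked profile. Calls among secreted hepatocyte proteins, drug and amino acid metabolism and ribosomal proteins were mostly negative, and those among matrix and stellate cell markers were positive. Among features with a symbol, the largest positive means belonged to CTDSPL2 (1.51 ± 0.19) and MMP2 (1.41 ± 0.14), and the largest negative means to PSPH (-1.5 ± 0.34), APOB (-1.46 ± 0.24) and KIF1BP (-1.46 ± 0.25). Of 14855 features 1558 were called, 785 positive (5.28%) and 773 negative (5.2%), at an adjusted p of 0.05 in limma.

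The sign was shared far more often than in the turned reading. Of 14845 features, 2460 were positive and 2290 negative on 4 of 4 arrays, 32.0% in all. Of those 1856 reached 1.2-fold and 112 reached 2-fold. Of the called features with 4 values, 760 of 784 positive and 715 of 773 negative ones had 1 sign on all arrays. Without replicate 4 there were 1121 calls, 572 positive (3.85%) and 549 negative (3.7%), of which 1025 were among the 1558, that is 65.8% of those called with it and 91.4% of those called without it. Replicates 1 and 3 weighed more. Without replicate 1 there were 916 calls and without replicate 3 there were 903, against 1281 without replicate 2.

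Some transcripts had the same value on all arrays and others were split by dye orientation. SCN4B, a sodium channel beta subunit, had deposited ratios of -1.31, -1.32, -1.29 and -1.31 on replicates 1 to 4 (-1.31 ± 0.12, adjusted p = 2.57e-06). APOB, the structural protein of very low density lipoproteins, had -2.09, -0.97, -2.07 and -0.72 (-1.46 ± 0.24, adjusted p = 0.00035). KIF1BP, a kinesin-binding protein, had -2.17, -0.63, -2.20 and -0.84. In SCN4B the orientations overlapped, whereas APOB and KIF1BP were more than 1 unit lower on replicates 1 and 3 than on replicates 2 and 4. Turned by dye, APOB had a ratio of 0.62 ± 0.38 (adjusted p = 1.0) and SCN4B one of -0.01.

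Such splits were found mostly on the side of the larger size on replicates 1 and 3. Over all features with 4 values, replicates 1 and 3 both lay below replicates 2 and 4 in 17.6% and both above in 17.7%. Among features called negative they lay below in 224 (29.0%) and above in 106 (13.7%). Among features called positive they lay above in 257 (32.8%) and below in 55 (7.02%). Replicates 1 and 3 were also the arrays with the widest spread across spots, with SDs of 0.345 and 0.334, against 0.281 on replicate 2 and 0.3 on replicate 4, and the part of this spread in the splits was not tested.

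Hepatocyte markers were negative as a group. All 16 measured members had a mean at or below 0, with a median of -0.47 against 0.00 over all features. Of the 16, 6 were called, all negative, against 5.2% called negative over all features. All 6 also belong to other lists described here, so the lists are not separate groups. Lists and members were chosen with earlier results of these data known, so the shares called in lists are descriptions and not tests. TTR, TF and AHSG are also counted among the plasma carriers, TAT and HPD among the amino acid genes and APOB among the lipoprotein genes. The median was negative on each array, between -0.43 and -0.21. TTR, the transthyretin that carries thyroid hormone, had -0.21, -0.12, -1.35 and -1.17 on replicates 1 to 4 (-0.71 ± 0.19, adjusted p = 0.0153). HPD, an enzyme of tyrosine breakdown, had -0.65, -1.25, -0.33 and -1.31 (-0.88 ± 0.25), and TAT, the tyrosine aminotransferase at the head of that pathway, had -0.52, -0.44, -0.51 and -0.83 (-0.58 ± 0.13). All were negative on every array, and in TTR replicates 3 and 4 made up most of the value. ALB, the albumin gene, which was named after its values were seen, had a mean of -0.50 and was not called (adjusted p = 0.0884). Without replicate 4, 2 of 16 were called, both negative, against 3.7% called negative over all features. TTR (adjusted p = 0.118) and HPD (adjusted p = 0.125) were no longer among them, and the median was -0.41.

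Most calls among secreted plasma proteins had the same sign, while 5.2% of all features were called negative and 5.28% positive. Of 22 plasma carriers and acute phase proteins, 8 were called negative and 1 positive, with a median of -0.34. Of 20 complement genes 4 were called negative and 0 positive, and of 24 genes of coagulation and fibrinolysis 6 were called negative and 3 positive. MBL2, the mannose-binding lectin that starts the lectin pathway of complement, had -1.03, -0.96, -1.14 and -0.66 (-0.95 ± 0.13, adjusted p = 5.4e-05). CFI, the protease that cuts complement C3b and C4b, had -1.38, -0.66, -1.28 and -0.97 (-1.07 ± 0.21). VTN, the adhesive plasma protein vitronectin, had -1.31, -1.06, -0.48 and -1.17 (-1.0 ± 0.17). Each of these was negative on 4 of 4 arrays, and in MBL2 and CFI replicates 1 and 3 were both lower than replicates 2 and 4. F9, clotting factor IX, had -1.23, -0.62, -1.16 and -0.63 (-0.91 ± 0.19), and PLG, plasminogen, had -0.99, -0.66, -1.01 and -0.68 (-0.83 ± 0.25), and both were split by orientation in the same way. PLG was no longer called without replicate 4 (adjusted p = 0.0723).

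Exceptions within these groups had the opposite sign. RBP4, the plasma carrier of retinol, had 0.77, 0.60, 0.66 and 0.61 on replicates 1 to 4, all positive and close together. VKORC1, the vitamin K epoxide reductase that sustains the activation of clotting factors, had 0.72, 0.64, 0.83 and 0.92 (0.78 ± 0.15, adjusted p = 0.00188). Without replicate 4, when 3.7% of all features were called negative and 3.85% positive, 2 plasma carriers were called negative in place of 8, 3 complement genes in place of 4 and 3 coagulation genes in place of 6, while the positive calls numbered 1, 0 and 3 in both.

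Calls among genes of detoxification and of amino acid, creatine and purine metabolism were also mostly negative, against 5.2% negative and 5.28% positive over all features. Of 35 genes of xenobiotic and aldehyde metabolism 9 were called negative and 1 positive, with a median of -0.13, and of 40 genes of amino acid, creatine and purine metabolism 9 were called negative and 1 positive, with a median of -0.14. CYP2D6, a cytochrome P450, had -1.59, -0.78, -1.38 and -1.39 on replicates 1 to 4 (-1.29 ± 0.31, adjusted p = 0.00869). KMO, an enzyme of tryptophan breakdown, had -0.97, -0.50, -0.70 and -0.73 (-0.72 ± 0.10, adjusted p = 9.96e-05). ABCC2, the pump that exports conjugates into bile, had -0.54, -0.88, -0.46 and -0.60 (-0.62 ± 0.09). All were below 0 on each array. PSPH, the last enzyme of serine synthesis, had -0.18, -1.31, -2.27 and -2.25, so that replicate 1 stood far above the other arrays. Without replicate 4 its mean was -1.25 and it was no longer called (adjusted p = 0.0546). Without replicate 4, 5 genes of each list were called negative and 1 of each positive, against 3.7% and 3.85% over all features.

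Of 47 cytosolic ribosomal protein genes 14 were called negative and 1 positive, against 5.2% and 5.28% over all features. Without replicate 4 these counts were 10 and 1, against 3.7% and 3.85%. The list's median was -0.15 with replicate 4 and -0.09 without it. By array it was -0.04, -0.1, -0.08 and -0.27 on replicates 1 to 4, so it was largest in size on replicate 4. RPS15A had -0.66, -1.14, -0.73 and -0.79 on replicates 1 to 4 (-0.83 ± 0.10, adjusted p = 1.81e-05) and RPL31 had -1.04, -0.68, -0.88 and -1.03 (-0.91 ± 0.12). RPS23 had -1.34, 0.07, -0.94 and -1.16, and was thus near 0 on replicate 2 alone. A cDNA probe can also bind transcripts of closely related genes, so values of gene families may be mixed.

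The calls among matrix and stellate cell markers were positive, although many members lay near 0. Calls over all features made up 5.28% positive and 5.2% negative, and 3.85% and 3.7% without replicate 4. The 2 calls each among 16 endothelial and 17 macrophage genes are too few to describe these groups. Of 37 matrix and stellate cell markers 6 were called positive and 0 negative, with and without replicate 4, while 23 of 37 had a positive mean and the median of the list was 0.04. Over all features 7601 of 14855 had a positive mean. MMP2, the gelatinase that degrades basement membrane collagen, had 1.70, 1.36, 1.36 and 1.22 (1.41 ± 0.14, adjusted p = 3.33e-06). SPARC, a secreted matrix glycoprotein, had 0.67, 0.54, 0.58 and 1.10 (0.72 ± 0.16). LAMB1, a laminin chain, had 0.78, 0.56, 0.62 and 0.91 (0.72 ± 0.12), and LAMC1, which pairs with it, had 0.54, 0.36, 0.74 and 0.64 (0.57 ± 0.10). All 4 genes were positive on each array, and the orientations overlapped in SPARC, LAMB1 and LAMC1. Of 16 endothelial markers 10 had a positive mean and 2 were called positive, the transcription factor FLI1 (1.41, 0.73, 0.15 and 0.80) and the junction protein ESAM (0.42, 0.24, 0.51 and 0.41). Of 17 markers of macrophages and antigen presentation 2 were called negative, with a median of -0.16, namely CYBB, the catalytic subunit of the phagocyte oxidase (-0.90 ± 0.17), and CTSB, a lysosomal protease (-0.40 ± 0.11), which was not called without replicate 4 (adjusted p = 0.0984). In tissue RNA a different share of a cell type and a different level per cell cannot be told apart. Nor can either be told apart from a difference between the dyes, since it is not known whether columns had been turned. Over the 24 arrays of the series, MMP2 and LAMB1 had 1 sign on 24, SPARC on 23 and LAMC1 on 22.

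**Figure D3:**
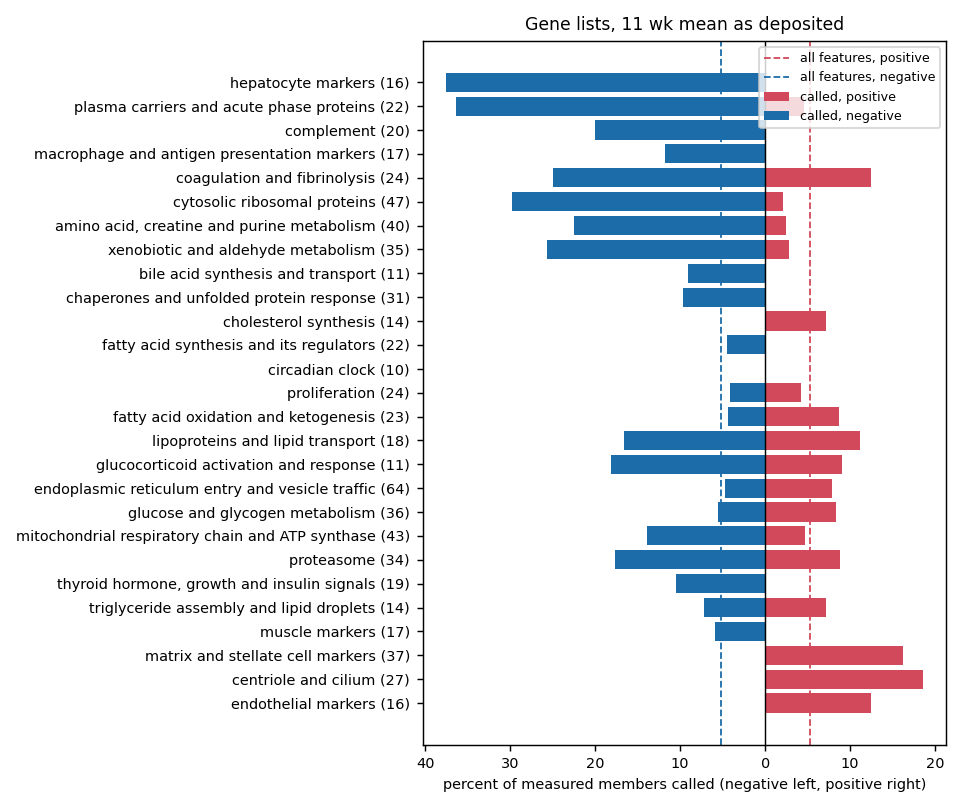
Percent of the measured members of each gene list that were called negative (bars to the left) or positive (bars to the right) in the 11 wk mean as deposited, for lists with at least 10 measured genes (number in brackets), ordered by median. Dashed lines mark 5.2% and 5.28%, the shares over all features. The lists were chosen with earlier results of these data known. Hepatocyte markers had 6 of 16 called negative, and matrix and stellate cell markers 6 of 37 called positive.

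Calls among genes of lipid and glucose metabolism were mixed in sign, and are read against 5.28% positive and 5.2% negative over all features. Of 22 genes of fatty acid synthesis 1 was called, ACACA, with -0.77, -0.84, -0.68 and -0.13 on replicates 1 to 4 (-0.60 ± 0.19, adjusted p = 0.0449), in which replicate 4 was the nearest to 0. FASN had -0.69, -0.50, -0.66 and -0.14 (-0.50 ± 0.24, adjusted p = 0.214), again with replicate 4 nearest to 0. Without replicate 4 these means were -0.76 for ACACA (adjusted p = 0.0308) and -0.62 for FASN (adjusted p = 0.205). THRSP had a mean of -0.43 ± 0.18 (adjusted p = 0.148) and SCD one of 0.09 ± 0.10 (adjusted p = 0.693). Among 18 lipoprotein and lipid transport genes 2 were called positive and 3 negative. These counts were the same without replicate 4, against 3.85% and 3.7% over all features. APOH, a phospholipid-binding plasma protein, had -1.15, -0.66, -1.02 and -1.32, and LCAT, which esterifies cholesterol in plasma lipoproteins, had -0.87, -0.28, -0.29 and -0.65, all negative. FABP4, the fatty acid binding protein of adipocytes and macrophages, had 0.55, 0.14, 0.43 and 0.40, all positive.

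Among glucose genes, PCK1, which catalyses the first committed step of gluconeogenesis, had 0.59, 0.55, 0.68 and 1.28 (0.77 ± 0.21, adjusted p = 0.017), and FBP1, a later enzyme of the pathway, had -0.42, -0.59, -0.61 and -0.84 (-0.61 ± 0.18, adjusted p = 0.0318). These enzymes of 1 pathway thus had opposite signs on every array, with the largest size of both on replicate 4. Without replicate 4 neither was called, with means of 0.61 (adjusted p = 0.127) and -0.54 (adjusted p = 0.138). In all, 3 of 36 glucose and glycogen genes were called positive and 2 negative, against 1 and 0 without replicate 4. These few calls were near the shares over all features, 5.28% positive and 5.2% negative with replicate 4, and 3.85% and 3.7% without it. HSD11B1B, annotated as a hydroxysteroid dehydrogenase, had -1.18, -2.05, -1.09 and -1.41 (-1.43 ± 0.29), the largest size on the list of glucocorticoid activation and response.

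Genes of other functions were also among those with the largest means. CTDSPL2 had 1.92, 1.25, 1.34 and 1.53, and SCARA5, a scavenger receptor that takes up ferritin, had 1.00, 1.15, 1.58 and 1.27. ING4, a chromatin reader, had 1.36, 0.74, 1.31 and 1.19. The lowest of these values was 0.74, on replicate 2 of ING4, and the orientations overlapped in CTDSPL2 and in SCARA5. The others with the largest positive means, from 0.97 to 1.12, were PPP4R3B, MSN, AP3B1, MSS51, MYL10, EIF2B4, ASB15 and TWIST1. On the negative side AP1M1 had a mean of -1.32, BRAP -1.30, ORM1 -1.24, TMEM248 -1.23, CYP2AC1 -1.22 and NECAP1 -1.15. Of these ORM1 was not called without replicate 4 (adjusted p = 0.12).

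**Figure D4:**
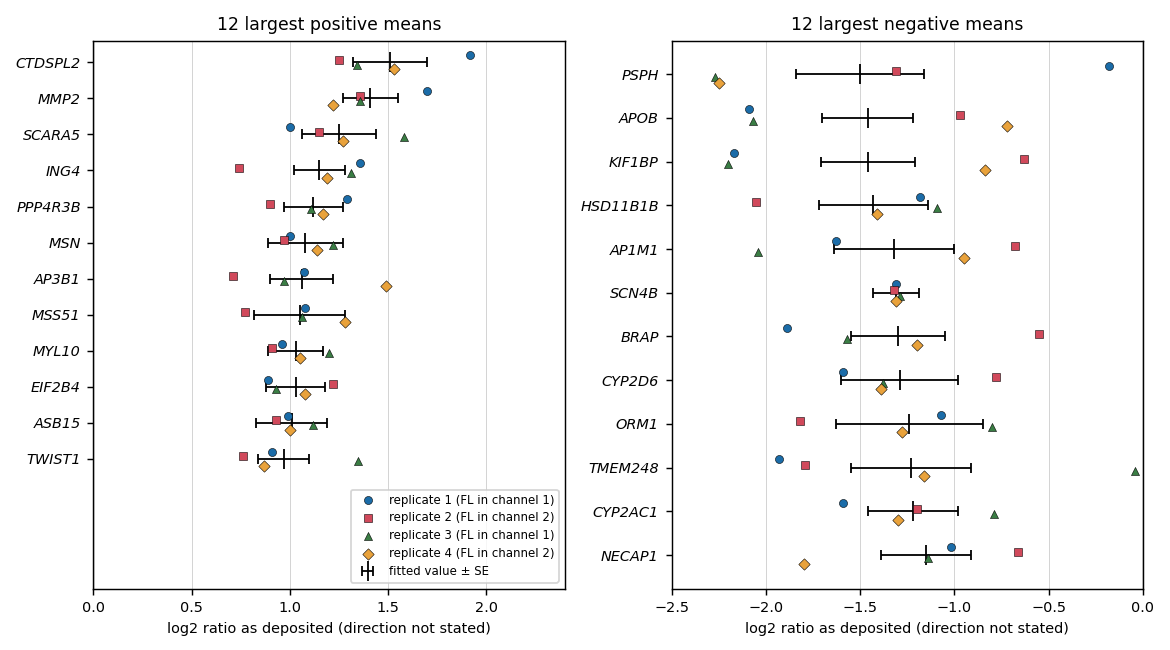
Log2 ratios as deposited (horizontal axes) of the 12 genes with a symbol, 1 sign on all arrays and the largest called positive (left) and negative (right) means at 11 wk. Markers are single arrays and bars are fitted means ± SE. SCN4B lies between -1.32 and -1.29 on all 4 arrays, whereas APOB and KIF1BP are split between replicates 1 and 3 and replicates 2 and 4.

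The last comparison asked what set 11 wk apart from the mean of the other ages. Turned by dye, 0 features were called (0% in either direction) and 486 had an unadjusted p under 0.05. Among features with a symbol the smallest p belonged to SPATA46, with a difference of 0.36 ± 0.08, SCFD2 (-0.83 ± 0.20), ARL6IP1 (-0.42 ± 0.10) and GLCCI1 (0.33 ± 0.08), each with an adjusted p of 1.0. As deposited, 139 features were called, 33 positive (0.222%) and 106 negative (0.714%). With each array centred on its median there were 169 calls, 92 positive and 77 negative. With centring and scaling there were 268 calls, 162 positive and 106 negative. The balance of signs thus already changed with centring alone. Without replicate 4 there were 88 calls, of which 71 were among the 139. Without replicate 1, 2 or 3 there were 51, 63 and 51. Without 7 wk replicate 1, which was not centred, there were 570, 308 positive and 262 negative.

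Among features with a symbol, MMP2 had the largest called positive difference. Its deposited ratios lay between 1.22 and 1.70 at 11 wk, with a median of 1.36, against 0.04 to 1.5 with a median of 0.38 on the 20 arrays of other ages (difference 0.89 ± 0.15, adjusted p = 0.00988). The groups overlapped only through the highest arrays of the other ages. The 9 wk mean was 1.07, and 7 wk replicate 1 had 1.5 where the other 7 wk arrays had 0.04 to 0.34. TWIST1, a transcription factor of mesenchymal cells, had 0.76 to 1.35 at 11 wk, against -0.27 to 0.94 at the other ages (0.64 ± 0.14, adjusted p = 0.0314). RBP4 had 0.60 to 0.77 at 11 wk, against -0.55 to 0.95 at the other ages (0.50 ± 0.12, adjusted p = 0.0461). COMMD7 had a median of 1.08 at 11 wk, against 0.12 at the other ages (0.81 ± 0.17), and its lowest 11 wk value was 0.33 on replicate 4.

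On the negative side SCN4B lay between -1.32 and -1.29 at 11 wk, against -1.67 to -0.09 at the other ages, with a difference of -0.69 ± 0.14 (adjusted p = 0.0139). NUDT7, a peroxisomal coenzyme A diphosphatase, had -0.91 to -0.54 at 11 wk, against -0.71 to 0.30 at the other ages (-0.68 ± 0.12, adjusted p = 0.00886). SLC35B2, a Golgi carrier of the sulfate donor PAPS, had -0.72 to -0.49 at 11 wk, against -0.73 to 0.46 at the other ages (-0.65 ± 0.13, adjusted p = 0.0131). The groups overlapped in each of these genes. Without replicate 4, TWIST1 (adjusted p = 0.061), RBP4 (adjusted p = 0.0992) and SLC35B2 (adjusted p = 0.0542) were no longer called. For 11 of the 12 genes named in this comparison the 9 wk mean lay nearer to the 11 wk mean than to the mean of 1, 3 and 5 wk, COMMD7 being the exception. The 9 wk means of SCN4B (-1.34), RBP4 (0.63), EXOSC7 (0.66) and CALCA (0.74) were close to their 11 wk means of -1.31, 0.66, 0.68 and 0.72. These genes thus did not set 11 wk apart from 9 wk. The gap was wider in the other named genes, as in SLC35B2 (-0.28 at 9 wk and -0.62 at 11 wk). For 9 of the 12, 7 wk replicate 1 lay nearer to the 11 wk mean than to the mean of the other 7 wk arrays, COMMD7, EXOSC7 and SLC35B2 being the exceptions. Over all 139 called features these counts were 97 (69.8%) for 9 wk and 59 (42.4%) for 7 wk replicate 1, against 56.1% and 53.6% over all features tested. The median of 7 wk replicate 1 over spots was 0.33 and was not removed, which bears on its counts. The 7 and 9 wk arrays were also part of the contrast that chose these features, so nothing is concluded from these shares.

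**Figure D5:**
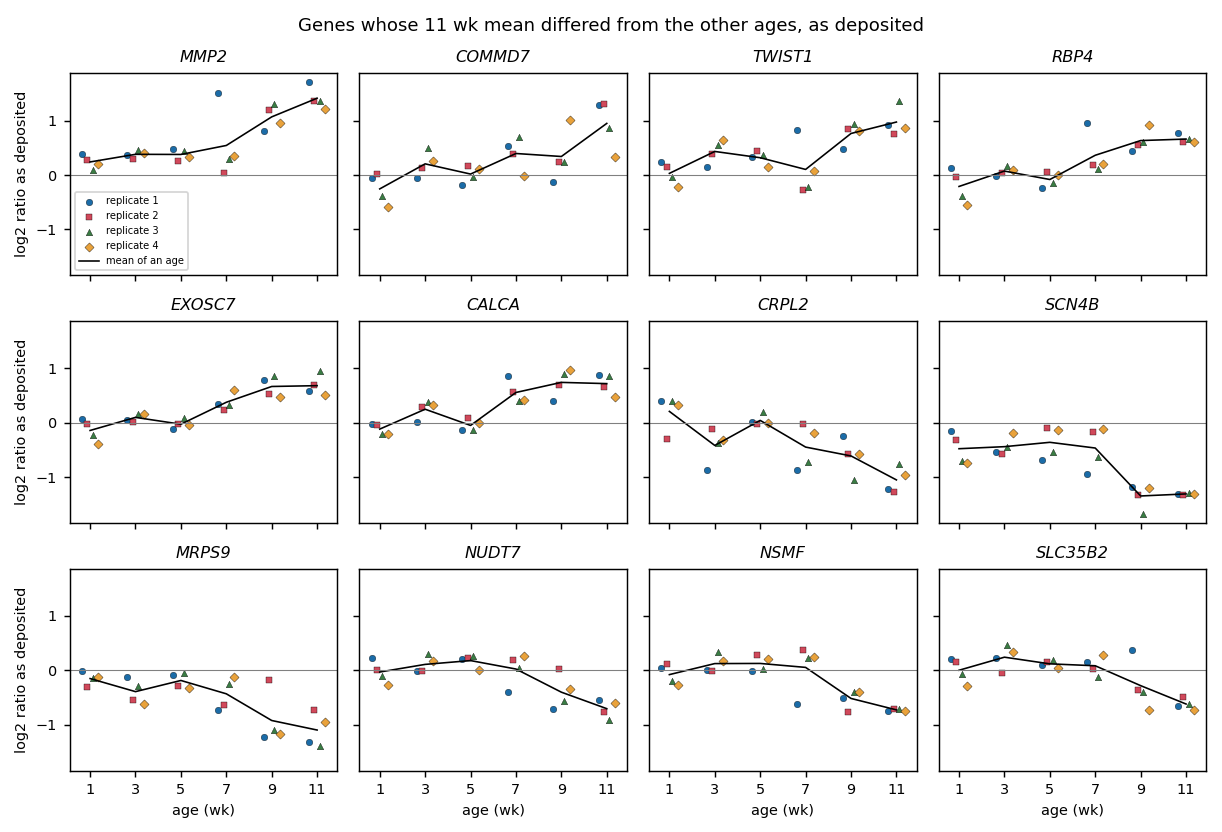
Log2 ratios as deposited (vertical axes) of the 12 genes with a symbol and the largest called differences between 11 wk and the other ages, by age (horizontal axes, wk). Markers are single arrays and lines join the means of the ages. In most panels the 9 wk mean lies on the side of the 11 wk mean, and 7 wk replicate 1 of MMP2, at 1.5, lies with the 11 wk arrays.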

How the data were processed

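The table deposited by the authors holds 1 column of log ratios per array, treated as log2, whose direction, log base, background correction and normalization are not given in the sources used here. No further normalization was applied. Of the probes, 10601 were named by the annotation and 8599 were not. Values of several probes for 1 gene were averaged. Features needed values on 3 or more of the 4 arrays of every age, and 175 values were missing. Features were tested in limma (version 3.58.1, R 4.3.3) over all 24 arrays, with a coefficient per age and, for turned values, 1 dye term, by two-sided tests. This dye term takes the dye effect to be equal at all ages, and any departure adds to the spread of turned values. With a dye term for each age, 4.39% of turned features had an unadjusted p under 0.05 at 11 wk, against 3.04%. The p values were adjusted (Benjamini-Hochberg) over all 14855 features, and a call needed an adjusted p of at most 0.05. SE are those of the fit. The number of arrays limits the precision. The model was checked on simulated data.

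Named genes were the 12 with the smallest p and 1 sign on all arrays, or the 12 largest called in each direction, up to 6 in each direction against the other ages, and, for every list, up to 4 of its called genes as deposited and the gene with the smallest p when turned. FASN, ACACA, SCD, THRSP and POC1B were always named. Older symbols in the lists that led to another gene were not used (15). Symbols of 2 accessions repeated on 123 probes were not named. Members and lists were chosen with earlier results of these data known. Alternatives left out arrays, centred and scaled arrays, kept probes apart, weighted arrays, and added replicate or dye terms.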

Additional observations from a re-analysis of the deposited data

Results flagged for a closer look

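Among the 11 wk values of named genes, 5 of 141 groups of 4 arrays had 1 array far from the others, where chance alone flags about 1 group in 20. As deposited, these were replicate 2 of ACSL1 (-0.12, against -0.74 to -0.69 on the other arrays), replicate 3 of HADHA (0.59, against 0.18 to 0.23), replicate 2 of SULT1C3 (-0.40, against -1.09 to -1.07) and replicate 3 of SPP1 (0.29, against -0.66 to -0.52). Turned by dye, it was replicate 1 of KRT8 (0.47, against 0.10 to 0.15).

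Against the other ages, as deposited, 12 genes were named because they were called, so their passing the test is no result of its own. Over all features 139 were called, 0.222% positive and 0.714% negative. The difference between 11 wk and the other ages was positive for MMP2 (0.89), COMMD7 (0.81), TWIST1 (0.64), RBP4 (0.50), EXOSC7 (0.49) and CALCA (0.44). It was negative for CRPL2 (-0.81), SCN4B (-0.69), MRPS9 (-0.68), NUDT7 (-0.68), NSMF (-0.67) and SLC35B2 (-0.65). Without replicate 4, TWIST1 (adjusted p = 0.061), RBP4 (0.0992), MRPS9 (0.0547) and SLC35B2 (0.0542) were no longer called in limma.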

How the results depend on the processing

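Turned by dye, 0 features were called at 11 wk in every alternative run except that with a dye term for each age, in which 1 was called, POC1B (adjusted p = 0.00917), and 0 were called against the other ages in every alternative run. As deposited, leaving out 1 array of 11 wk at a time gave between 903 and 1281 calls at 11 wk in place of 1558, and between 51 and 88 in place of 139 against the other ages. Against the other ages there were also 570 calls without 7 wk replicate 1, 426 without it and 11 wk replicate 4, 268 with arrays centred and scaled, and 441 with array weights. At 11 wk there were 2306 calls without 7 wk replicate 1. The cause of these shifts was not tested. The other alternatives stayed within 1.5 times the main counts. Turning the sign of 1 wk replicate 4, which was chosen after seeing the data, gave 1553 and 130 calls as deposited.

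Replicate numbers did not pair arrays across ages. The deviations of arrays of the same number correlated at -0.023 on average, against 0.007 for other numbers, and the replicate block gave 0 and 1477 calls at 11 wk and 0 and 116 against the other ages, turned and as deposited. With 1 array of 11 wk left out at a time, ACACA turned by dye lay between -0.00 (without replicate 1) and 0.35, and POC1B as deposited between -0.16 (without replicate 3; -0.11 without replicate 1) and 0.38. As deposited, POC1B had opposite signs between the dye orientations, which are unequal in number when 1 array is left out. Of the values of named genes under the alternatives as deposited, 1190 kept their sign and call at 11 wk, 163 were no longer called, 2 became called and 2 changed sign (POC1B). Against the other ages 124 kept them and 32 were no longer called. The number of arrays limits the precision, with a median half-width of 0.17 for turned values.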

Other observations

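Further gene groups were described as deposited, each read against 5.28% positive and 5.2% negative calls over all features. Counts without replicate 4 are read against 3.85% positive and 3.7% negative. Of 43 genes of the respiratory chain and ATP synthase 6 were called negative and 2 positive. COX6A1, a subunit of cytochrome oxidase, had -0.69, -0.84, -0.41 and -0.82 on 11 wk replicates 1 to 4, and COX7C, another subunit of that enzyme, had 0.47, 0.52, 0.98 and 0.78, the second not called without replicate 4 (adjusted p = 0.0848), so that subunits of 1 complex had opposite signs on all arrays. Without replicate 4 the calls were 6 negative and 0 positive. Of 34 proteasome genes 6 were called negative and 3 positive, among them PSMB7 (-0.39 ± 0.08) and PSMF1, an inhibitor of the proteasome (0.47 ± 0.13), against 2 and 1 without replicate 4, when PSMF1 was not called (adjusted p = 0.0726).

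Of 27 centriole and cilium genes 5 were called positive and 0 negative, with a median of 0.05, and without replicate 4 this was 1. BBS4 had 0.33 ± 0.10 and TUBD1 0.30 ± 0.08, neither called without replicate 4 (adjusted p = 0.134 and 0.0564). Of 24 proliferation genes, CCNB3, a cyclin, was negative (-1.13, -0.59, -0.42 and -0.48) and PCNA, the sliding clamp of DNA replication, positive (0.18, 0.29, 0.28 and 0.24), and no other was called. Of 10 clock genes 0 were called. Lists with few measured genes were lymphocyte markers (3) and bile duct markers (4), and 6 pancreas markers had 0 calls.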
